A study of Homo sapiens with 3 samples.

Results

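Colon differentiation genes and mucins were compared among 3 cultures of LoVo, an established human colorectal cancer cell line. The list holds 40 genes, chosen by symbol from those known for goblet cells, enteroendocrine cells, enterocytes and the transcription factors of the intestine. Each gene was represented by the probe set that names it alone or, if several did, by the brightest of them. On this rule 36 of the 40 genes were measured, out of 18417 genes in all. MUC5AC, NEUROD1 and HNF4A are named by no probe set of the annotation used here, and FABP1 is named only together with another gene, so these 4 were not analysed here.

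Total RNA was hybridised to Affymetrix Human Gene 1.0 ST arrays, with 1 array for each of the cultures. They were parental LoVo cells and the irinotecan-resistant line LoVo-R8, the latter cultured either free of the drug or in 8 μM irinotecan. LoVo-R8 had been selected by raising the dose of irinotecan, a topoisomerase I poison, from 0.1 to 8 μM. No transgene is named in the labels, and the sources used here leave unstated whether LoVo-R8 is a clone. The treatment text shared by all labels mentions irinotecan 24 h before RNA purification, and whether parental LoVo received it is not given. There were no replicates, so values are given without errors or tests, and differences were counted at 2-fold. The levels are log2 intensities that the authors normalized by the robust multichip average (RMA). The median probe set was at 6.94 on the parental array, 6.95 in LoVo-R8 without irinotecan and 6.94 in LoVo-R8 with irinotecan. The first quartile lay at 5.39, 5.42 and 5.39, and levels near or below it are close to background on such arrays. Both LoVo-R8 cultures were compared with the same parental array, so their differences from it are not independent of each other. In RNA of whole cultures, fewer cells of a type and less RNA per cell cannot be told apart.

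The lining of the colon is renewed from stem cells at the crypt base, whose daughters become absorptive enterocytes or secretory cells. Goblet cells release gel-forming mucins, trefoil factors and other proteins of the mucus layer, and enteroendocrine cells store hormones with chromogranins. Enterocytes take up salt and water through brush border transporters and carry transmembrane mucins on their surface. ATOH1 starts the secretory programme, SPDEF matures goblet cells, and CDX1, CDX2, HNF4A, GATA6, KLF4 and KLF5 act more widely in intestinal epithelium.

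In LoVo-R8 without irinotecan 5 members, MUC2, MUC12, AGR2, CA2 and GUCA2A, were lower by 2-fold or more, against 2.78% of all genes. Their promoters, from RefSeq (GRCh38.p14), are shown because the results turn on these genes, with CA2 named only. They are MUC2 (chr11:1074624-1074873, plus strand), MUC12 (chr7:100969315-100969564, plus strand), AGR2 (chr7:16805000-16805249, minus strand) and GUCA2A (chr1:42164746-42164995, minus strand). Each line gives the 250 bases before the annotated start, 5′ to 3′ on the strand of the gene. Capitals mark TTTAT, a core of the sites that CDX factors bind, and GATAA, the core of GATA factor sites, on either strand (ATAAA and TTATC on the other one).
MUC2: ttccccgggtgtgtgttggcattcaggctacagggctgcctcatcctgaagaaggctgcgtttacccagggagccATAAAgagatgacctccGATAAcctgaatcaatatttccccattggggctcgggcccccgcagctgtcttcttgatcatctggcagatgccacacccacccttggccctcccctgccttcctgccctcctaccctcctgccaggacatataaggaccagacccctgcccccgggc
MUC12: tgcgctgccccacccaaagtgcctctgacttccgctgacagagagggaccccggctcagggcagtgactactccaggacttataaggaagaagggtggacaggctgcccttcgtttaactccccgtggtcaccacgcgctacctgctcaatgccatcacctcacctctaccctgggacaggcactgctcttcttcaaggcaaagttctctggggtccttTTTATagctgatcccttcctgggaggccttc
AGR2: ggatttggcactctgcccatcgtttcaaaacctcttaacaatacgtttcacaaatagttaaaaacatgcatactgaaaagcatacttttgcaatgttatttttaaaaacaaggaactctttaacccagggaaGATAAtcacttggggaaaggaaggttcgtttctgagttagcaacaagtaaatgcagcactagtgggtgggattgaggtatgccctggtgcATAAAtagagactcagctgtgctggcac
GUCA2A: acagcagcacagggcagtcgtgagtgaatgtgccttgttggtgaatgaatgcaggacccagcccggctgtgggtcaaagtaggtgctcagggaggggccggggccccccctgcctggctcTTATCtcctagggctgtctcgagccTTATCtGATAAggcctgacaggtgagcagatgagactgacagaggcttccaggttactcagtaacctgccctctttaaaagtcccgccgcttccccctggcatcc
The MUC2 window holds 1 match of TTTAT, whose first base lies 175 bases before the start, and 1 of GATAA at 158 bases. MUC12 holds 1 match of TTTAT, at 31 bases, and 0 of GATAA. AGR2 holds 1 of each, TTTAT at 28 bases and GATAA at 118. GUCA2A holds 0 of TTTAT and 3 of GATAA, at 130, 105 and 99 bases. The TTTAT letters are also part of the TATA box motif TATAAA read on the other strand, and the matches in MUC12 and AGR2 lie at the distance where a TATA box usually sits. On the strand of the gene, however, the MUC12 match reads TTTATA and the AGR2 match CATAAA, so neither is TATAAA there. Of 24 measured members with a window in the table, 14 held TTTAT (58.3%) and 9 held GATAA (37.5%). Among all 35116 windows of the same length, 32.7% held TTTAT and 20.4% held GATAA. The member shares count genes with a match in any of their windows, whereas the shares over all count single windows. A gene with several windows has more than 1 chance of a match, so these shares are not directly comparable. These counts describe letters in a window and not bound sites.

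A few members fell in the resistant cells and most read within 2-fold of parental LoVo. In LoVo-R8 without irinotecan, 5 of 36 members were lower by at least 2-fold (13.9%, against 2.78% of all genes) and 0 were at least 2-fold higher (against 1.64% of all genes). In LoVo-R8 with irinotecan, 4 were lower (11.1%, against 2.3%) and 1 was higher (2.78%, against 2.25%). All 4 of these lower genes, MUC2, MUC12, CA2 and GUCA2A, were among the 5 of the other array, and AGR2 was the fifth. The single higher gene was TFF2. The median log2 difference of the members was 0.07 without irinotecan and 0.00 with it, beside 0.00 and 0.00 over all genes. With 17 of the 36 members below the array median on all arrays, these medians cannot show whether the list as a whole was shifted.

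At 1.5-fold, 6 members were lower on each LoVo-R8 array (16.7%, against 8.84% of all genes without irinotecan and 7.19% with it), TFF1 and AGR2 being added to the 4 that were lower on both at 2-fold. MUC13 alone was higher without irinotecan (2.78%, against 4.37%), and TFF2 and CDX2 were higher with it (5.56%, against 5.79%). At 3-fold, MUC2, MUC12 and CA2 were lower on each array (8.33%, against 0.977% and 0.831%) and 0 were higher (against 0.483% and 0.733%).

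Many members were dim. On all arrays 17 of the 36 lay below the array median, with levels between 3.91 and 6.89. Members that fell from above the median are left out of these 17 by their parental level, so nothing is read from the differences of the 17. Of them, CLCA1, CA1, MS4A12 and SLC26A3 lay below the first quartile on every array, between 3.91 and 4.52. RMA gave 13 members the same value on at least 2 arrays, and CA1 and GUCA2B the same value on every array. Such ties are common when the method is fitted on few arrays and do not show that the RNA was equal.

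**Figure D1:**
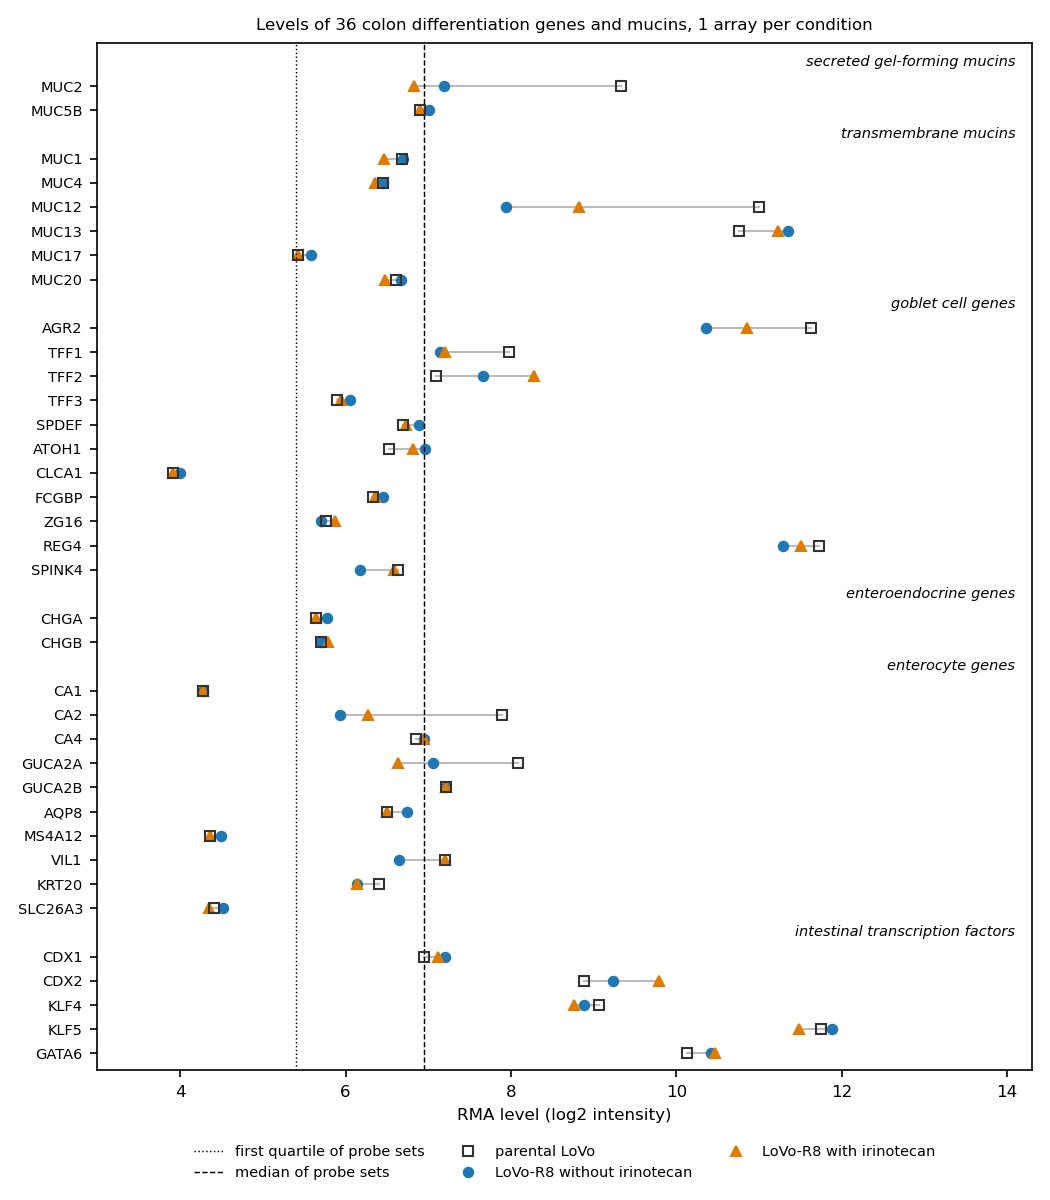
RMA levels (log2 intensity, horizontal axis) of the 36 measured members by lineage in parental LoVo (open squares), LoVo-R8 without irinotecan (blue circles) and LoVo-R8 with irinotecan (orange triangles), 1 array each. The dotted and dashed lines mark the mean over the arrays of their first quartiles and medians. MUC12 (11.00 in parental LoVo, 7.94 and 8.82 in LoVo-R8), MUC2, CA2 and GUCA2A lie to the left of their parental squares on both LoVo-R8 arrays.

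Of the secreted mucins measured, MUC2 was lower and MUC5B stayed near the array median. MUC2, which encodes the gel-forming mucin of the colon mucus layer, was at 9.33 in parental LoVo and at 7.19 and 6.82 in LoVo-R8 without and with irinotecan. Both LoVo-R8 arrays were thus well below the parental one, and near the array median. The log2 differences were -2.14 and -2.51, or 22.7% and 17.6% of the parental level. MUC5B, the gel-forming mucin of airways and glands, had levels of 6.90, 7.01 and 6.90, all close to the array median. The stromal genes COL1A1 (7.49, 7.66 and 7.57) and COL3A1 (6.90, 7.03 and 6.85) read as high. The median of the 13 stromal and blood cell markers was 5.70 on each array. Levels near the array median may thus hold background, which limits the MUC2 percentages and the reading of MUC5B.

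Of 6 transmembrane mucins, MUC12 was lower on both LoVo-R8 arrays and the other 5 were within 2-fold. MUC12, a mucin of the colonic surface, measured 11.00 in the parental cells, 7.94 without irinotecan and 8.82 with it. Its log2 differences were -3.06 and -2.18, the lowest of any member without irinotecan, and 12.0% and 22.1% of the parental level. A further MUC12 probe set had 10.69, 7.94 and 8.43, and a dim one had 6.27, 5.46 and 5.06. All 3 were below their parental level on both LoVo-R8 arrays, though the dim one reached 2-fold only with irinotecan (-1.22, against -0.81 without it). Mucin genes hold long repeats and MUC12 has a close relative in MUC3A, so probe sets may share sequence, which was not examined.

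MUC13, a transmembrane mucin that is abundant in colorectal cancers, went the other way by less than 2-fold. Its levels were 10.75, 11.35 and 11.23, or log2 differences of 0.60 and 0.48. MUC1, whose product is a widely used tumour antigen, had 6.68, 6.69 and 6.47. MUC4, a partner of the receptor ERBB2, had 6.45, 6.45 and 6.35, MUC20 had 6.62, 6.67 and 6.48, and MUC17, a mucin of the small intestinal brush border, had 5.43, 5.58 and 5.43. These 4 lay below the array median throughout and within 0.22 of their parental levels.

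Among 11 goblet cell genes, AGR2 was lower without irinotecan and TFF2 was higher with it. AGR2, a disulfide isomerase that mucin folding needs, measured 11.62 in the parental cells, 10.36 without irinotecan and 10.85 with it. Both LoVo-R8 arrays were below the parental one, by -1.26 and -0.77 on the log2 scale, and the second of these is under 2-fold. REG4, a secreted lectin of goblet and enteroendocrine cells, stayed bright, at 11.73, 11.29 and 11.50. SPINK4, a protease inhibitor made by goblet cells, had 6.63, 6.18 and 6.58.

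The trefoil factors, small secreted proteins that aid mucosal repair, did not move together. TFF2 measured 7.09, 7.66 and 8.28, in the order parental LoVo, LoVo-R8 without and LoVo-R8 with irinotecan. It was above the parental level on both, by 0.56 and 1.18, and 2.27-fold higher with irinotecan. The parental level of TFF2 was near the array median and may hold background, which limits this fold. TFF1 had 7.97, 7.14 and 7.20, so both LoVo-R8 arrays were below parental LoVo, at -0.84 and -0.77. TFF3, the trefoil factor of goblet cells in the colon, stayed under the array median at 5.90, 6.05 and 5.94.

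The factors that direct the secretory lineage did not read lower. Their parental levels lay below the array median, which limits how far a fall could be seen. ATOH1 had levels of 6.52, 6.96 and 6.81, which is 0.43 and 0.29 above parental LoVo, and SPDEF had 6.69, 6.89 and 6.73. The mucus proteins FCGBP (6.33, 6.45 and 6.35), ZG16 (5.77, 5.71 and 5.87) and CLCA1 (3.91, 4.0 and 3.91) were at low levels on every array. Such levels limit how far a loss could be seen, and their differences from parental LoVo lay between -0.06 and 0.12.

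The 2 enteroendocrine genes measured lay between the first quartile and the median of every array. CHGA, which encodes the hormone granule protein chromogranin A, had 5.64, 5.77 and 5.64. CHGB, its relative, had 5.70, 5.70 and 5.78. Neither was past 0.13 of its parental level.

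Of 10 enterocyte genes, CA2 and GUCA2A were lower on both LoVo-R8 arrays and 0 were higher. CA2, a cytosolic carbonic anhydrase, measured 7.89 in the parental cells, 5.94 without irinotecan and 6.27 with it. The parental array was above the array median and both LoVo-R8 arrays were below it, with log2 differences of -1.95 and -1.63. GUCA2A encodes guanylin, the ligand of the receptor guanylate cyclase C that drives fluid secretion. It had 8.09, 7.06 and 6.64, or differences of -1.03 and -1.45, and is the member closest to the 2-fold limit without irinotecan. VIL1, which encodes the brush border protein villin, had 7.20, 6.64 and 7.20, so it read below parental LoVo (-0.55) only without irinotecan. Its values in parental LoVo and in LoVo-R8 with irinotecan were tied by RMA, which does not show that the RNA was equal.

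The other enterocyte genes gave little contrast. GUCA2B, the uroguanylin gene, had 7.21 on every array, and CA1 had 4.28 on every array. CA4, a membrane-bound carbonic anhydrase, had 6.85, 6.95 and 6.95, and KRT20, a keratin of differentiated colon cells, had 6.40, 6.13 and 6.13. The water channel gene AQP8 had 6.50, 6.75 and 6.50, the colonocyte gene MS4A12 4.36, 4.49 and 4.36, and the chloride exchanger gene SLC26A3 4.41, 4.52 and 4.35. All of these were within 0.27 of their parental levels, most of them below the array median.

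The 5 intestinal transcription factors measured kept or exceeded the array median on every array, and 0 reached 2-fold. CDX2, a homeobox factor that specifies intestinal identity, measured 8.88 in the parental cells, 9.23 without irinotecan and 9.79 with it. It was above the parental level on both, by 0.35 and 0.91, the latter being 1.87-fold. CDX1, its relative, had 6.95, 7.20 and 7.12, all near the array median, where levels may hold background. GATA6, a zinc finger factor of crypt and villus cells, had 10.13, 10.42 and 10.47, or 0.29 and 0.34 above parental LoVo. KLF5, a factor of proliferating crypt cells, had 11.75, 11.88 and 11.48, and KLF4, a factor of differentiated cells, had 9.06, 8.88 and 8.76. The list's median log2 difference was 0.25 without irinotecan and 0.17 with it.

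Several members lie beside a relative in the genome, and the relatives often differed. In RefSeq gene order, MUC3A, MUC12 and MUC17 follow each other with 0 protein-coding genes between them. MUC12 was at least 2-fold lower on both LoVo-R8 arrays, while MUC3A (8.19, 7.75 and 7.82) and MUC17 were within 2-fold. MUC2 lies between MUC6 and MUC5B with 1 protein-coding gene on either side, and it was lower while MUC6, a gastric gel-forming mucin (6.22, 6.55 and 6.39), and MUC5B were not. GUCA2A was lower and its neighbour GUCA2B was tied. CA2 was lower and CA1, with 1 gene between them, was tied near the bottom of the array. In the row of TFF3, TFF2 and TFF1, with 0 genes between them, TFF2 was above its parental level and TFF1 below it. MUC20 and MUC4, also adjacent, were both within 0.14 of parental LoVo. Of the genes within 2-fold on both arrays in these sets, GUCA2B, MUC3A and TFF1 lay above the array median on every array, and CA1 lay below the first quartile. MUC5B lay close to the median, and MUC6, MUC17, TFF3, MUC20 and MUC4 lay below it throughout. These dimmer genes had less room to show a fall than MUC2 or MUC12.

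**Figure D2:**
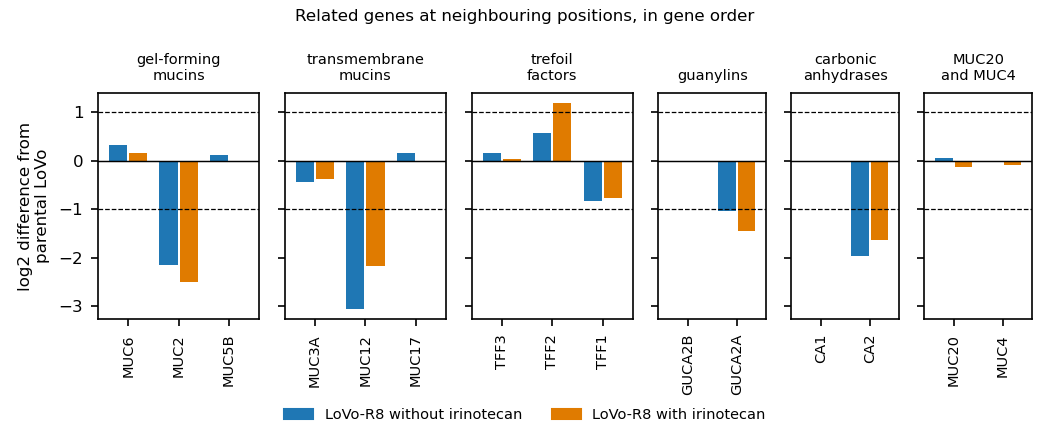
Log2 difference from parental LoVo (vertical axis) in LoVo-R8 without irinotecan (blue bars) and with irinotecan (orange bars) for 6 sets of related genes at neighbouring positions, drawn in gene order, with dashed lines at 2-fold. Bars of MUC2 (-2.14 and -2.51) and MUC12 (-3.06 and -2.18) stand beside neighbours within 2-fold, and bars that are not visible are differences of 0.00.

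Wider lists of the same lineages were counted in the same way. Over all genes, 1.64% were at least 2-fold higher and 2.78% lower without irinotecan, and 2.25% and 2.3% with it. Of 17 further goblet genes, 0 were at least 2-fold higher or lower on either LoVo-R8 array, and the medians were 0.03 and 0.01. The pioneer factors FOXA1 (8.80, 8.54 and 8.70) and FOXA2 (8.12, 8.22 and 8.46) were among them, as were LRRC26, a potassium channel subunit (8.19, 8.48 and 8.34), and SLC12A2, a chloride cotransporter (10.89, 10.47 and 11.16). Of 11 other mucin genes, 0 reached 2-fold on either array. Of 21 further enteroendocrine genes, 1 was lower on each array, and it was a different gene. The neurotensin gene NTS was at -1.31 without irinotecan and -0.91 with it, and the endocrine factor gene RFX6 at -0.94 and -1.06, both from levels under the array median. INSM1, an endocrine transcription factor, had 7.88, 8.03 and 7.85.

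Among 33 further enterocyte and brush border genes, 3 were higher and 3 lower without irinotecan, and 5 and 2 with it. The shares over all genes were 1.64% and 2.78% without irinotecan, and 2.25% and 2.3% with it. LGALS4, a galectin of the colon epithelium, had levels of 10.60, 8.33 and 8.59, and both LoVo-R8 arrays were lower, by -2.27 and -2.01. PCK1, an enzyme of gluconeogenesis, was lower too, at 8.08, 6.44 and 6.41. ADH1C, an alcohol dehydrogenase, had 5.58, 8.16 and 9.25 and was at least 2-fold higher on both. Its parental level was near the first quartile, where background hides how low it was, so no fold is given, and probes may also bind RNA of the related ADH1 genes. MYO7B, a myosin of the microvillus tip links, was also higher, at 7.29, 8.36 and 8.80. CDH17, an intestinal cadherin, was bright on every array (11.89, 12.95 and 13.01) and past 2-fold in both resistant cultures, at 1.07 and 1.13 above parental LoVo. The peptidase gene DPP4 (11.80, 12.27 and 12.06) and the microvillus actin bundler gene PLS1 (10.61, 11.16 and 11.14) were bright as well and within 2-fold. In this list 21 of 33 genes were above their parental levels without irinotecan and 19 with it, and the medians were 0.16 and 0.07. Over all 18417 genes, 9001 were above parental LoVo without irinotecan and 7532 with it.

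Of 15 further intestinal transcription factors, 1 was higher and 1 lower without irinotecan, and 2 and 2 with it. The shares over all genes were 1.64% and 2.78% without irinotecan, and 2.25% and 2.3% with it. GRHL2, an epithelial junction factor, had levels of 8.65, 5.77 and 6.02, and both LoVo-R8 arrays were lower, by -2.88 and -2.63. PRDM1, a repressor that times the switch from suckling to adult enterocytes, had 8.31, 10.07 and 9.61 and was higher on both. ISX, an intestine-specific homeobox factor, had 6.45, 7.04 and 8.27, with differences of 0.59 and 1.82. HNF4G, a nuclear receptor of enterocytes, had 9.03, 8.54 and 7.86, and was at least 2-fold lower only with irinotecan (-0.48 and -1.17).

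**Figure D3:**
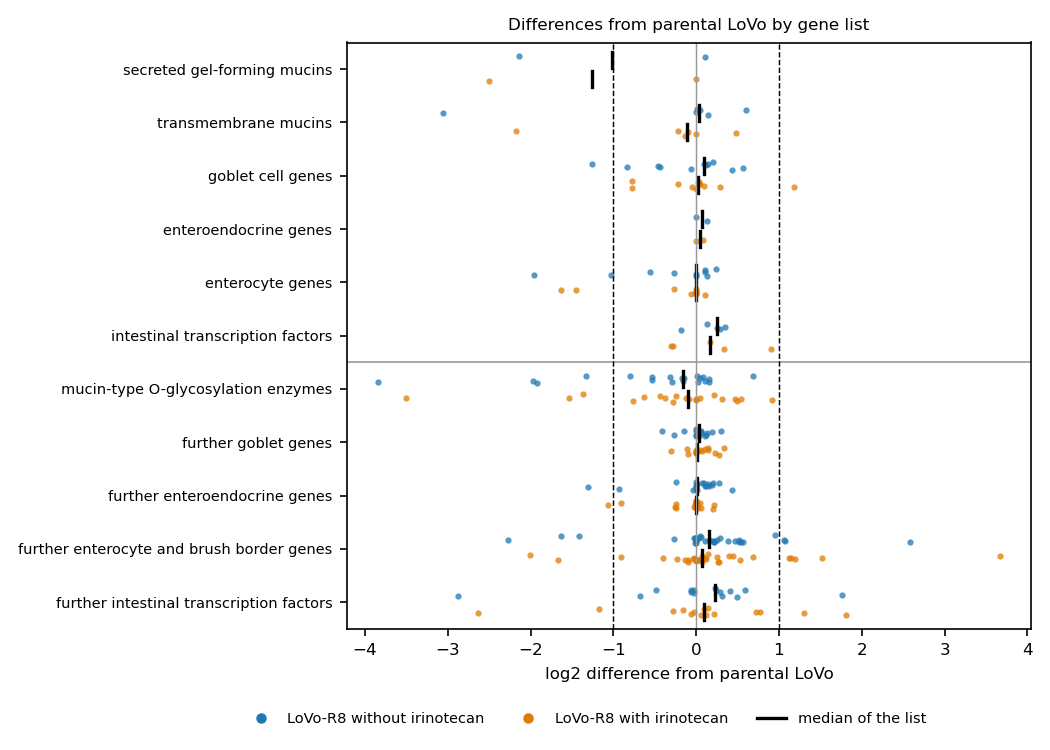
Log2 difference from parental LoVo (horizontal axis) of each measured gene in the 6 member lists (above the grey line) and 5 wider lists (below it), in LoVo-R8 without irinotecan (blue) and with irinotecan (orange), with black bars at the list medians and dashed lines at 2-fold. Genes past 2-fold lie at the edges of lists whose medians stay near 0, apart from the pair of secreted mucins.

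Enzymes that build the O-linked glycans of mucins were lower in several cases. Of 20 measured, 4 were at least 2-fold lower and 0 higher without irinotecan, and 3 and 0 with it, with medians of -0.16 and -0.10. Over all genes, 2.78% were lower and 1.64% higher without irinotecan, and 2.3% and 2.25% with it. GALNT3, which attaches the first sugar, measured 9.24 in the parental cells, 5.40 without irinotecan and 5.74 with it. Both LoVo-R8 arrays were near the first quartile, where background limits the size of the differences of -3.84 and -3.50. GALNT5, of the same enzyme family, had 10.62, 8.69 and 9.25, with differences of -1.93 and -1.36. GCNT4, which branches the glycan, had 7.24, 5.27 and 5.70. The sialyltransferase gene ST3GAL1 had 7.62, 6.29 and 6.99, and was at least 2-fold lower only without irinotecan (-1.33 and -0.63). GCNT3, the main branching enzyme of intestinal mucins, stayed bright at 12.60, 12.07 and 11.83, and C1GALT1, which makes the core 1 structure, had 8.97, 9.66 and 9.89. The list thus held enzymes on both sides of their parental levels.

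**Figure D4:**
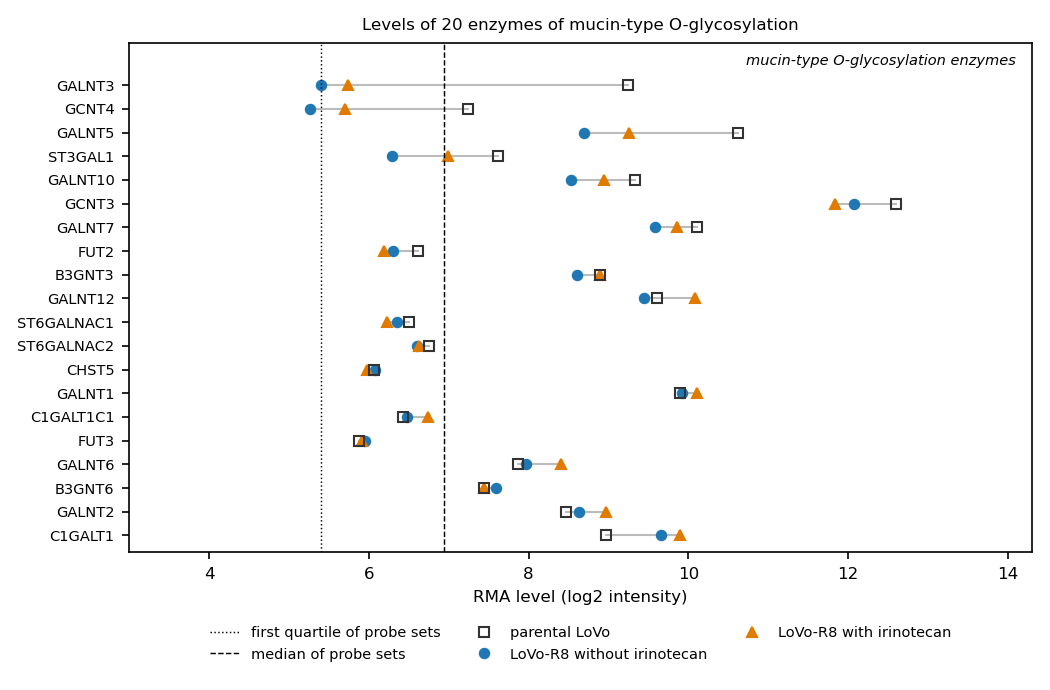
RMA levels (log2 intensity, horizontal axis) of 20 enzymes of mucin-type O-glycosylation in parental LoVo (open squares), LoVo-R8 without irinotecan (blue circles) and LoVo-R8 with irinotecan (orange triangles), 1 array each, ordered by the difference without irinotecan. The dotted and dashed lines mark the mean first quartile and median of the arrays. GALNT3 spans from 9.24 in parental LoVo to 5.40, and C1GALT1 at the bottom lies above its parental square on both LoVo-R8 arrays.

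Between the LoVo-R8 cultures, which differ in the drug, 0 of 36 members were at least 2-fold higher with irinotecan (against 0.527% of all genes) and 0 were at least 2-fold lower (against 0.114%). At 1.5-fold, MUC12 and TFF2 were higher with irinotecan (5.56%, against 2.87%) and 0 were lower (against 1.08%). Over all genes the LoVo-R8 arrays differed by less than 0.53 for 95% of them. MUC12 (0.88), TFF2 (0.62), CDX2 (0.56) and VIL1 (0.55) lay outside that range, 11.1% of the members, and all 4 were higher with irinotecan. AGR2 (0.49) and SPINK4 (0.41) came next. GUCA2A (-0.42), KLF5 (-0.40) and MUC2 (-0.37) were at the other end. For MUC12 and AGR2 the culture with irinotecan was thus nearer to parental LoVo, and for MUC2 and GUCA2A it was farther from it. Of these gaps, that of MUC12 alone lay outside the range of 95% of genes, and only for the brightest of its 3 probe sets. A further MUC12 probe set differed by 0.49, inside that range and under 1.5-fold. The dim one differed by -0.40, so it was farther from parental LoVo with irinotecan.

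**Figure D5:**
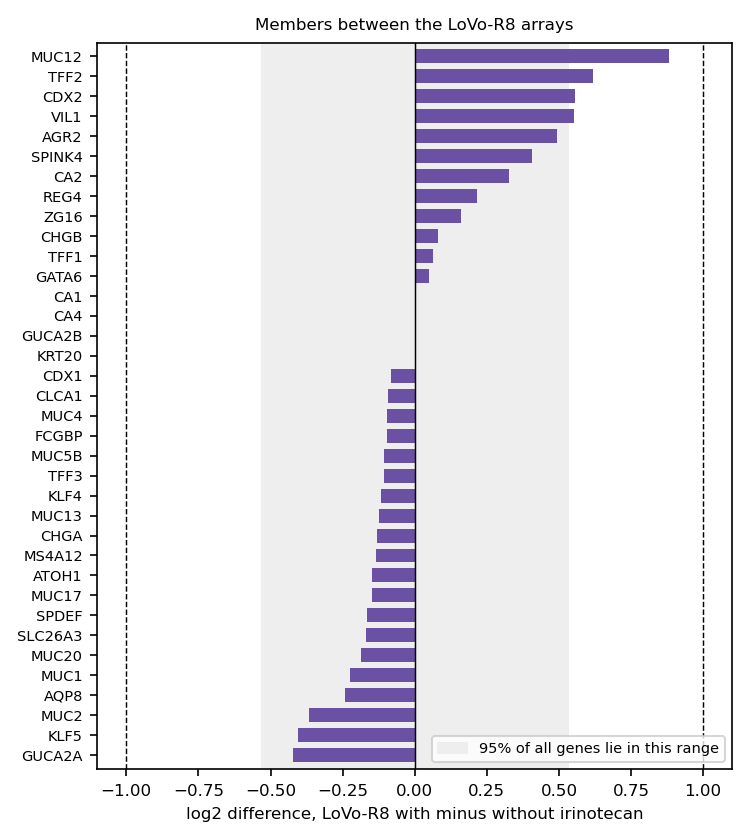
Log2 difference of LoVo-R8 with irinotecan minus LoVo-R8 without irinotecan (horizontal axis) for the 36 members, with a grey band that holds 95% of all genes (0.53 on either side) and dashed lines at 2-fold. Bars of MUC12 (0.88), TFF2, CDX2 and VIL1 reach beyond the band and 0 bars reach 2-fold.

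Markers of cell identity were read beside these results. Epithelial markers lay above the array median on every array, and 8 of 8 were below their parental levels on both LoVo-R8 arrays. Over all 18417 genes, 7087 were below parental LoVo without irinotecan and 8233 with it. EPCAM (12.33, 11.90 and 12.03) and KRT8 (13.27, 12.73 and 12.77) stayed bright. The claudin genes had 9.65, 8.66 and 8.05 (CLDN3), 9.76, 7.74 and 8.78 (CLDN4) and 11.86, 10.24 and 10.05 (CLDN7). The E-cadherin gene CDH1 had 11.26, 8.2 and 9.0. On each array 3 of the 8 were at least 2-fold lower, against 2.78% of all genes without irinotecan and 2.3% with it. Their part in the lower mucin and enterocyte genes was not tested. Stromal and blood cell markers (13 measured) lay within 0.28 of parental LoVo, and 0 reached 2-fold. Of 12 gastric markers, CTSE, which encodes cathepsin E, was lower on both (9.57, 7.15 and 8.42), and the defining genes GKN1, GKN2 and ATP4A were at the same or nearly the same low level throughout. Of 6 Paneth cell markers, PLA2G2A, a secreted phospholipase, was lower on both (9.08, 6.67 and 6.80), and DEFA5 and DEFA6 stayed between 5.31 and 5.70. EPCAM, KRT8 and CDX2 were thus well above the array median in all cultures, while the differentiation keratin KRT20 was below it. Enterocyte genes lay at both ends of the scale, with CDH17, DPP4 and PLS1 bright and CA1, MS4A12 and SLC26A3 below the first quartile on every array.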

How the data were processed

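Levels of RNA were measured in parental LoVo, LoVo-R8 without irinotecan and LoVo-R8 with irinotecan on Affymetrix Human Gene 1.0 ST arrays, from 300 ng of total RNA and with 1 array each. The deposited values are log2 levels of 33297 probe sets. The authors made them by RMA, which subtracts background, quantile-normalizes the arrays and summarises the probes of a set by median polish. For this step, Affymetrix Expression Console 1.1 is named in the submitters' processing notes and R with Bioconductor in the methods. The table has no missing value. Precision is limited by the number of arrays.

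Of the probe sets, 19460 name 1 gene, 1754 name several and 12083 are unnamed here. Each gene took the values of the brightest probe set naming it alone, by the mean over the arrays. The listed KIAA1324 was found as ELAPOR1 through RefSeq synonyms. Differences are subtractions of log2 levels, counted at 2-fold, with no test. The members and lists were chosen with earlier results of these data known. Named genes were all measured members and, of each other list, up to 4 genes with the largest differences from parental LoVo among those at or above the array median on at least 1 array. CD164, MUC21, OVGP1, FEV, PCSK1N, PYY, GHRL and LYZ met this rule but are not described above. All of them were within 2-fold of parental LoVo on both LoVo-R8 arrays. NTS, RFX6, GCNT3, C1GALT1, MUC6, EPCAM, KRT8, GKN1, GKN2, ATP4A, DEFA5, DEFA6, CDH17, DPP4 and PLS1 were named after their values were seen. Alternatives were other normalizations (median centring, loess with span 0.3 and 3 iterations, quantile normalization once more), other probe set choices, filters on dim probe sets and thresholds of 1.5-fold and 3-fold. Counting was tested on simulated data. Python 3.11.15, numpy 2.4.6, pandas 2.3.3, statsmodels 0.14.6 and matplotlib 3.10.9 were used. The detection filter of the methods was not applied.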

Additional observations from a re-analysis of the deposited data

How the results depend on the processing

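With median centring, loess correction, repeated quantile normalization, averaging of a gene's probe sets, or the probe set highest in parental LoVo, each of the 10 member differences past 2-fold stayed past it, with no change of direction. The probe set choices could alter MUC12 alone among them, since MUC2, AGR2, CA2, GUCA2A and TFF2 have 1 probe set each. RMA had already quantile-normalized the arrays, so median centring and a repeat of that step could change little. MUC12 moved most, between -3.06 and -2.20 without irinotecan and between -2.18 and -1.88 with it, and GUCA2A without irinotecan lay between -1.08 and -1.01. At 1.5-fold, 6 members were lower on each LoVo-R8 array, 1 was higher without irinotecan (MUC13) and 2 were higher with it (TFF2 and CDX2). Between the LoVo-R8 arrays, 2 were higher with irinotecan at 1.5-fold and 0 were lower. At 3-fold, 3 members were lower on each LoVo-R8 array and 0 were higher on either. With a filter on the higher array at the 50th percentile, 17 members remained for LoVo-R8 with irinotecan and their median difference became -0.22, since such a filter drops members dim on both arrays and keeps those that are bright on 1 array alone. No paired analysis was possible because each condition has 1 array. For the same reason no array could be left out. Members near or below the first quartile had little room to show a fall.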
